A study of Homo sapiens with 45 samples.

Results

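The strands of 4 groups of human microRNA hairpins are described here: miR-642a, its mirror-strand neighbour miR-642b, miR-629 and miR-550a. The 8 mature strands, of 2817 mature miRNAs counted in the study, are hsa-miR-642a-5p, hsa-miR-642a-3p, hsa-miR-642b-5p, hsa-miR-642b-3p, hsa-miR-629-5p, hsa-miR-629-3p, hsa-miR-550a-3p and hsa-miR-550a-3-5p, written below without the species prefix. They were selected on their measured levels, because 3p strands or variants among them gained when AGO1 and AGO2 were both lost, so values of those knockouts against wild type are given below as a description, with no test.

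Small RNAs were sequenced from HCT116, an epithelial line from a human colorectal carcinoma, and from its knockout derivatives. Whole-cell RNA came from AGO1-/-, AGO2-/-, AGO1-/-, AGO2-/- (AGO1/2 KO), AGO1-/-, AGO2-/-, AGO3-/- (AGO1/2/3 KO), TNRC6A-/-, TNRC6B-/- and TNRC6A-/-, TNRC6B-/- (TNRC6A/B KO) cells and from wild-type cells. RNA from immunoprecipitates (IP) came from a pan-AGO antibody in AGO1/2 KO, AGO1/2/3 KO and wild-type cells, from the AGO1 antibody 2A7 in wild-type and AGO1 KO cells, and from the AGO2 antibody 3148 in wild-type and AGO2 KO cells, where the knockouts give the antibody's background. Each of the 15 groups had 3 libraries, labelled as biological replicates. Every knockout is a derivative of the same parental line, the sources used here name no clones, and effects of a clone and of its genotype cannot be told apart.

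A microRNA hairpin is cut by DROSHA and then by DICER1 into a duplex of a 5p and a 3p strand. An Argonaute protein (AGO1 to AGO4 in humans) usually keeps one of them, the guide, and the other, the passenger strand, is degraded. The 3p share of a hairpin, its 3p counts over its 3p and 5p counts, therefore follows which strand is retained. AGO2 can cleave RNA. TNRC6 proteins bind Argonautes and recruit the machinery that silences the target mRNA. The seed, bases 2 to 8, sets most of a strand's targets. Among the members, miR-642a-3p is known as a miRNA of human adipocytes, miR-629-5p was described as a regulator of HNF4A in liver cells, and miR-550a-3-5p as a regulator of YAP1.

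The mature sequences, from RefSeq on GRCh38.p14, show which members can be told apart and which share targets. All 8 were matched by name; capitals mark the seed.

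miR-642a-5p: gUCCCUCUccaaaugugucuug
miR-642a-3p: aGACACAUuuggagagggaacc
miR-642b-5p: gGUUCCCUcuccaaaugugucu
miR-642b-3p: aGACACAUuuggagagggaccc
miR-629-5p: uGGGUUUAcguugggagaacu
miR-629-3p: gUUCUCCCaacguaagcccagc
miR-550a-3p: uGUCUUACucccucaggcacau
miR-550a-3-5p: aGUGCCUGagggaguaagag

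miR-642a-3p and miR-642b-3p had the same seed and differed only by A20C, counted from the 5′ end with the miR-642a-3p base first. The other members each had a seed of their own among the 8. miR-642b-5p was the exact reverse complement of miR-642a-3p, since both lie at chr19:45674978-45674999 on opposite strands. The 5p rows miR-642a-5p and miR-642b-5p shared a run of 19 bases, offset so that their seeds differed. miR-550a-3-5p was identical to the first 20 bases of its relative miR-550a-5p, aGUGCCUGagggaguaagagccc. The sources used here do not say how reads matching both of such a pair were counted, which leaves their split uncertain.

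The hairpins behind these strands are printed with the mature strands in capitals, since the results turn on how the arms share the counts.

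MIR642A: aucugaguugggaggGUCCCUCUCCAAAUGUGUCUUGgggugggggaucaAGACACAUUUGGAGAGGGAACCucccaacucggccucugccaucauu
MIR642B: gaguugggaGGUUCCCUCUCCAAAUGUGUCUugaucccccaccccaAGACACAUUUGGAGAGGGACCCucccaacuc
MIR629: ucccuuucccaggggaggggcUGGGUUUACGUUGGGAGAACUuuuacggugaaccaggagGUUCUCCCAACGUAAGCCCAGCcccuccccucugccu
MIR550A3: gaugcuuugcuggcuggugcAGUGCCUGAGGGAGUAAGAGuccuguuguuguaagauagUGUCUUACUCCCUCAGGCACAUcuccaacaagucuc

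MIR642A lies on the plus strand at chr19:45674928-45675024, inside an intron of GIPR, which encodes the receptor of the gut hormone GIP. MIR642B lies within the same interval on the minus strand, at chr19:45674932-45675008, and so runs against GIPR. MIR629 lies on the minus strand at chr15:70079372-70079468, in an intron of TLE3, a transcriptional co-repressor, in the sense of the gene. MIR550A3 lies on the minus strand at chr7:29680734-29680828, in an intron of the transcribed pseudogene ZNRF2P2. The same miR-550a-3p sequence is also encoded by MIR550A1, in an intron of ZNRF2 on chromosome 7, and by MIR550A2, in an intron of ZNRF2P1 on the same chromosome. No hairpin overlapped an annotated exon in GENCODE 29.

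The libraries held between 1783590 and 9860313 counts over all RNA classes, of which 39851 to 7142721 fell on mature miRNAs. Levels are therefore given as RPM with the mature miRNA counts of a library as the total, and the miRNA share of a library is given where it bears on a value. The share was 2.15 to 2.45% in AGO1/2 KO cells and 1.46 to 2.18% in AGO1/2/3 KO cells, against 4.73 to 5.67% in wild-type cells. Epithelial marker miRNAs, such as miR-200c-3p, were detected as 7 of 7 in every group. Their summed level was 5063 to 5530 RPM in AGO1/2 KO cells and 742 to 1025 RPM in AGO1/2/3 KO cells, against 14846 to 15546 RPM in wild-type cells. The markers of the labelled epithelial line were thus detected, but were low in AGO1/2/3 KO cells. There miR-200c-3p averaged 144 RPM, against 12301 RPM in wild-type cells. Markers of other cell types and of serum, 16 of 16 with none at 0 in any group, summed to 1211 to 1312 RPM in AGO1/2 KO and 995 to 1373 RPM in AGO1/2/3 KO, against 1769 to 2014 RPM in wild-type cells. In AGO1/2/3 KO cells the sums of the 2 marker sets overlapped, so they do not set the line apart in that genotype. The part of either marker set in the members' values was not tested, and in bulk RNA fewer cells of a type and less RNA per cell cannot be told apart. Fragments of the AGO1 mRNA averaged 1.03 CPM (of all counts) in AGO1 KO cells, 0.963 in AGO1/2 KO and 0.710 in AGO1/2/3 KO, against 5.42 in wild-type cells. Fragments of AGO2 averaged 11.3 CPM in AGO2 KO and 22.2 CPM in AGO1/2 KO, against 16.8 CPM in wild-type cells, and do not check that knockout.

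In cells without AGO1 and AGO2 the 3p strands of miR-642a, miR-642b and miR-629 were high, and the 3p strand held most of the counts of miR-642a and miR-642b. miR-642a-3p had 1359, 928 and 1556 RPM in AGO1/2 KO cells and 1613, 1775 and 1266 RPM in AGO1/2/3 KO cells, against 78.4, 58.7 and 73.2 RPM in wild-type cells. Every double and triple knockout library lay above every wild-type library. The fitted log2 change against wild type was 3.59 ± 0.34 (SE) in AGO1/2 KO and 3.33 in AGO1/2/3 KO. miR-642b-3p, which shares its seed, had 259, 230 and 407 RPM in AGO1/2 KO and 370, 361 and 199 RPM in AGO1/2/3 KO, against 23.9, 10.4 and 42.4 RPM in wild-type cells. These 6 knockout libraries also lay above the 3 wild-type ones, with log2 changes of 2.94 ± 0.45 and 2.49. miR-629-3p had 401, 247 and 671 RPM in AGO1/2 KO and 639, 707 and 488 RPM in AGO1/2/3 KO, against 71.6, 65.6 and 38.5 RPM in wild-type cells. Its log2 changes were 2.26 ± 0.34 and 2.23, again with no overlap.

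The 5p partners moved less. miR-642a-5p averaged 462 ± 78.0 RPM in AGO1/2 KO and 326 ± 23.6 RPM in AGO1/2/3 KO, against 207 ± 29.5 RPM in wild-type cells (SD, n = 3 each). Its fitted log2 change was 0.59 in the double and -0.47 in the triple knockout. For miR-642b-5p the 2 values were 0.81 and -0.71, and for miR-629-5p 0.09 and -0.02. The fitted changes are smaller than the RPM ratios because the fit scales libraries by TMM (trimmed mean of M values) and not by the miRNA total alone: in AGO1/2 KO the median of all miRNAs was 0.23 with TMM scaling, 0.80 when scaled to the miRNA total and -0.34 when scaled to all counted RNAs.

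miR-550a behaved the other way round, with the 5p variant as the strand that was high. miR-550a-3-5p had 55.0, 17.0 and 153 RPM in AGO1/2 KO and 235, 125 and 109 RPM in AGO1/2/3 KO, against 6.82, 17.3 and 11.6 RPM in wild-type cells. One AGO1/2 KO library, at 17.0 RPM from 2 counts, lay within the wild-type range. The log2 changes were 1.94 ± 0.61 and 2.53. miR-550a-5p, which begins with the same 20 bases, averaged 358 ± 13.2 RPM in AGO1/2/3 KO against 31.6 ± 12.9 RPM in wild-type cells (SD, n = 3 each). miR-550a-3p had only 2, 1 and 6 counts in AGO1/2 KO cells and 2, 5 and 2 in AGO1/2/3 KO cells, against 12, 5 and 8 counts in wild-type cells, and its log2 changes were -0.74 and -0.44. The median log2 change over the 8 members was 1.37 in AGO1/2 KO and 1.10 in AGO1/2/3 KO, beside 0.23 and 0.18 over all miRNAs tested. That gap follows from how the members were chosen.

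**Figure D1:**
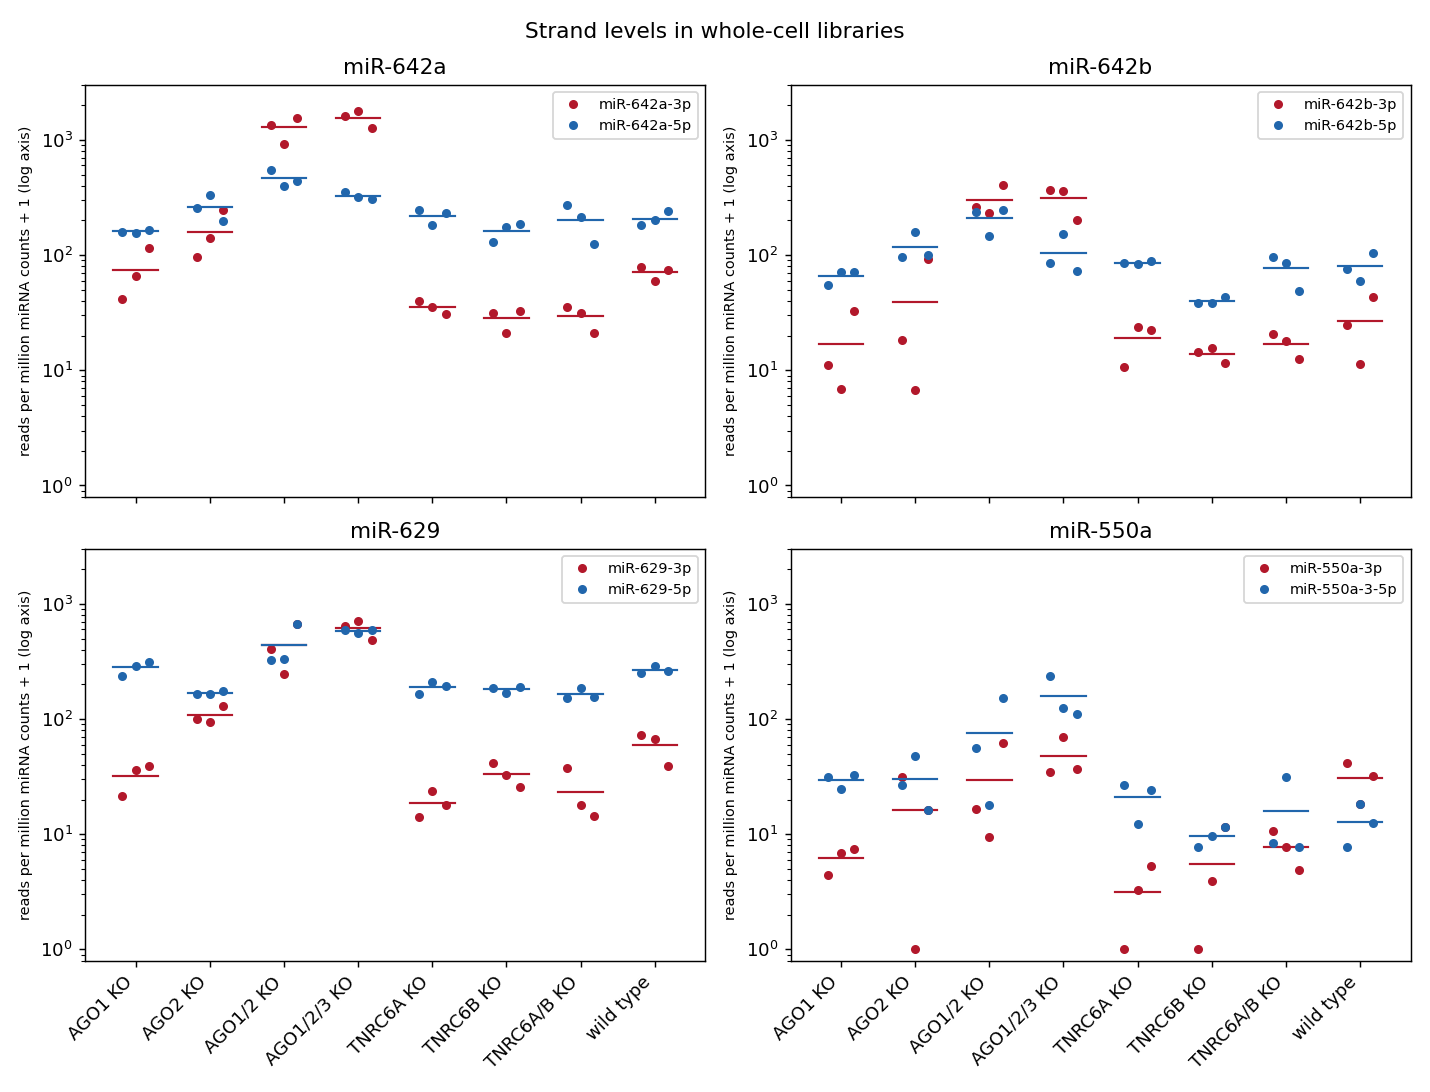
Level of each member in each whole-cell library, as RPM plus 1 on a log axis, with 3p strands in red, 5p strands in blue and a bar at the mean of each group of 3 libraries. miR-642a-3p sits between 928 and 1775 RPM in the AGO1/2 and AGO1/2/3 KO libraries and between 58.7 and 78.4 RPM in the wild-type libraries.

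With AGO3 lost in addition, the 3p strands differed less than the miR-642 5p strands. Between AGO1/2/3 KO and AGO1/2 KO cells the log2 change was -0.26 for miR-642a-3p, -0.45 for miR-642b-3p and -0.03 for miR-629-3p. It was -1.06 for miR-642a-5p and -1.52 for miR-642b-5p. The median over the members was -0.18 beside -0.10 over all miRNAs, and 0.35 beside 0.45 with scaling to the miRNA total.

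Within a library the arms can be compared without any scaling. The 3p share of miR-642a was 71.2, 69.9 and 78.1% in AGO1/2 KO cells and 82.1, 84.8 and 80.5% in AGO1/2/3 KO cells, against 30.3, 22.7 and 23.5% in wild-type cells. The order of the strands thus differed between the knockouts and wild type in all 9 libraries. For miR-642b the share averaged 58.7 ± 5.54% in AGO1/2 KO and 75.0 ± 5.79% in AGO1/2/3 KO, against 22.7 ± 7.08% in wild-type cells (SD, n = 3 each). For miR-629 it averaged 49.5 ± 6.44% and 51.0 ± 5.59%, against 17.9 ± 4.69% in wild-type cells (SD, n = 3 each). For miR-550a, with both 5p rows counted, the 3p share averaged 11.5 ± 2.28% and 8.39 ± 3.72%, against 41.3 ± 17.0% in wild-type cells (SD, n = 3 each). As log2 changes of the 3p to 5p ratio, miR-642a had 2.98 ± 0.42 (SE) in the double and 3.75 in the triple knockout, and miR-629 had 2.17 ± 0.38 and 2.26.

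**Figure D2:**
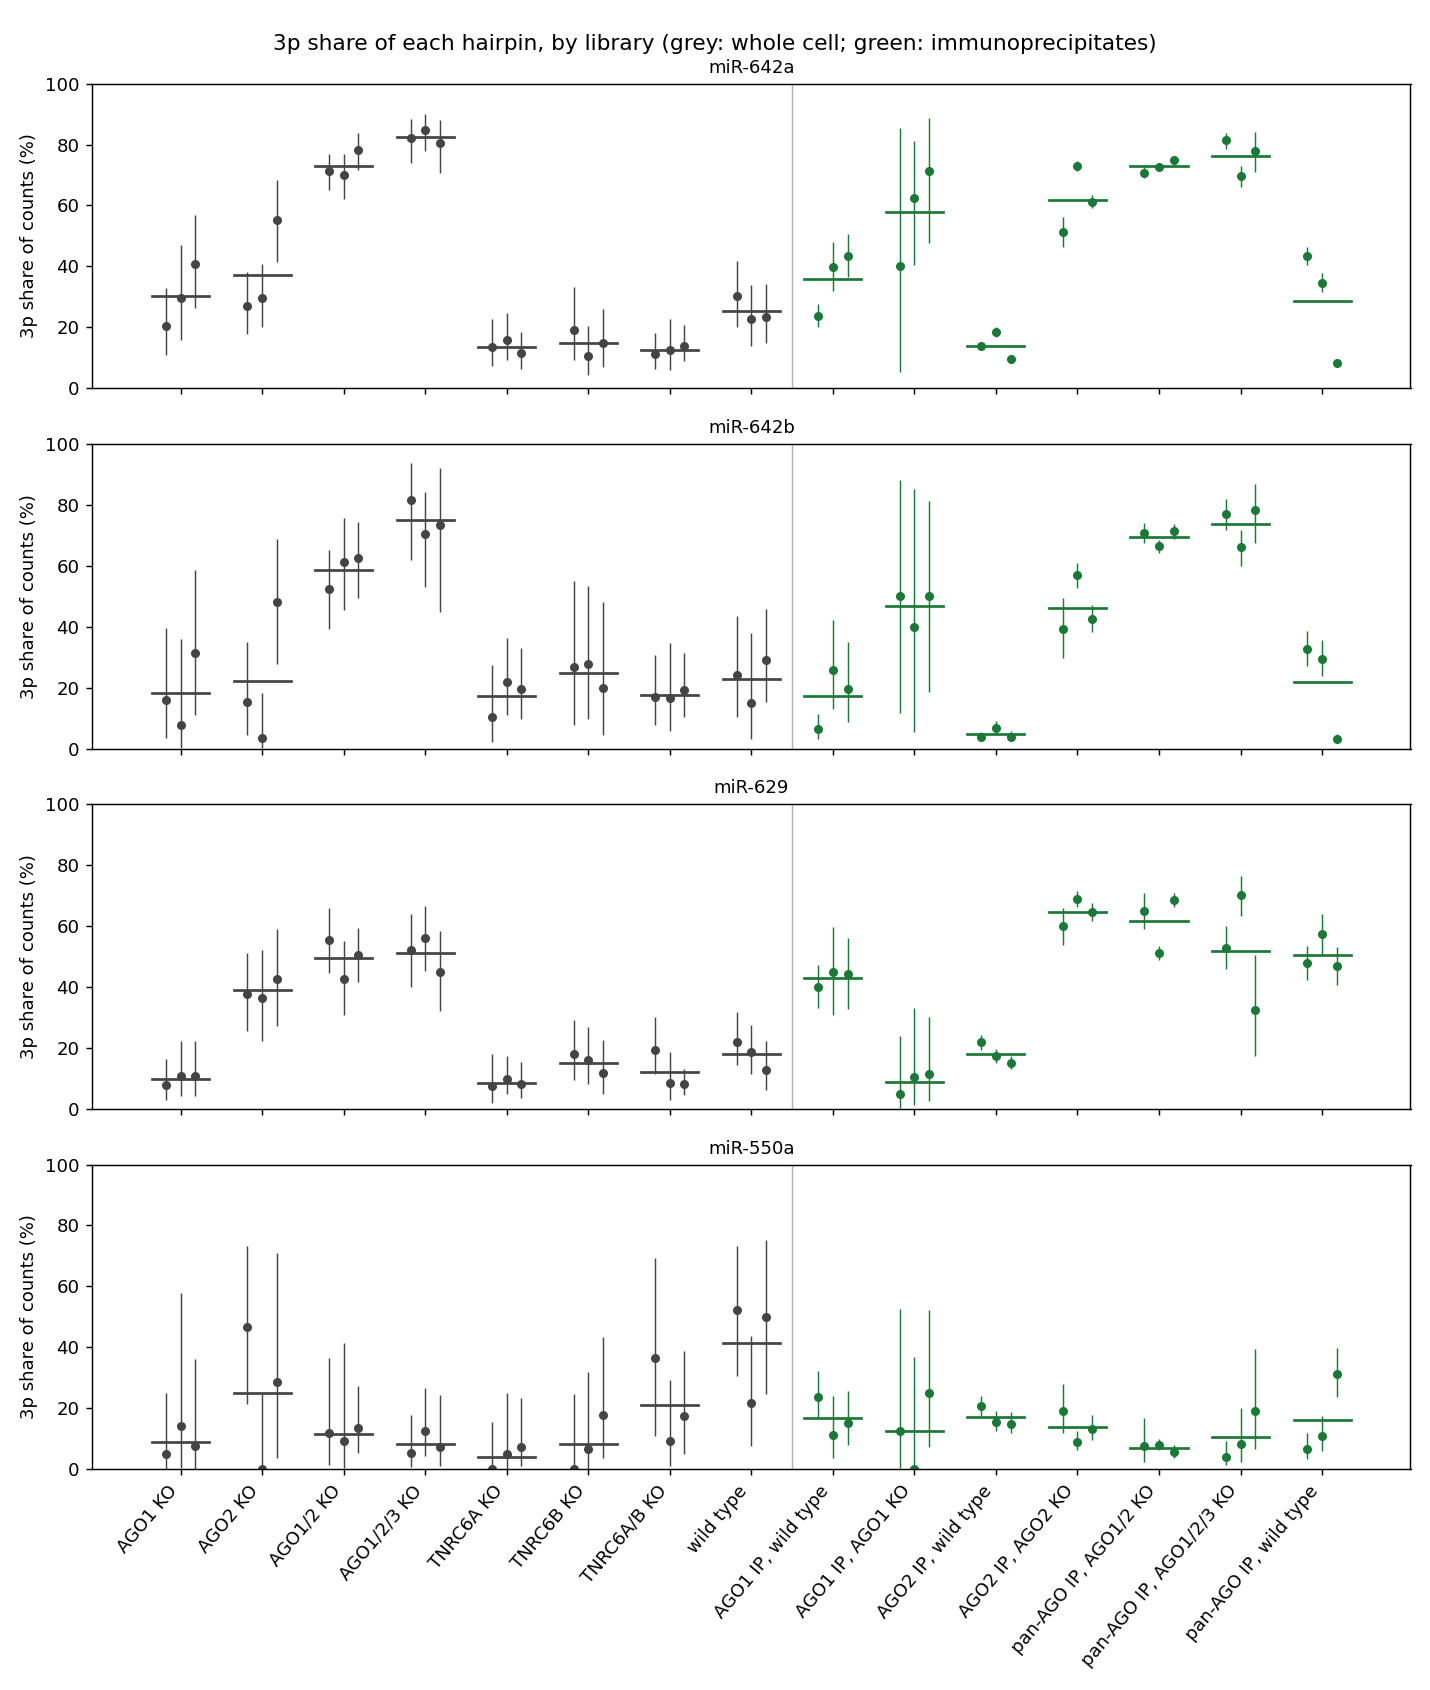
3p share of each hairpin in percent, 1 point per library with its exact 95% interval, over the 15 groups, whole-cell libraries in grey and IPs in green. The share of miR-642a lies at 69.9% or above in the AGO1/2 and AGO1/2/3 KO whole-cell libraries and at 30.3% or below in wild-type cells.

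Against all counted RNAs instead of the miRNA total, miR-642a-3p had 29.7 ± 6.43 CPM in double knockout (AGO1/2) and 27.3 ± 8.36 CPM in triple knockout (AGO1/2/3) cells, against 3.66 ± 0.471 CPM in wild-type cells (SD, n = 3 each). On the same scale miR-642a-5p had 10.8 ± 2.28 CPM in the double and 5.75 ± 1.71 CPM in the triple knockout, against 10.8 ± 0.950 CPM in wild-type cells. The level of miR-642a-3p was thus higher on both scales, while that of miR-642a-5p in AGO1/2 KO equalled wild type on the scale of all counts. miR-629-3p had 10.1 ± 4.27 CPM in the double and 10.8 ± 3.41 CPM in the triple knockout, against 3.13 ± 1.13 CPM in wild-type cells (SD, n = 3 each).

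A set of 10 abundant guide strands, such as let-7a-5p and miR-21-5p, had a median log2 change of -1.09 in AGO1/2 KO, and 19 known partner 3p strands of 5p guides had a median of -0.50. In AGO1/2/3 KO those medians were -2.60 and -0.41. On the RPM scale the partner 3p strands summed to 26101 to 31410 RPM in AGO1/2 KO and 32414 to 38498 RPM in AGO1/2/3 KO, against 13743 to 16756 RPM in wild-type cells. The list was thus higher in its summed RPM and negative in its median fitted change. RPM rests on the miRNA total, which was a smaller part of all counts in these knockouts. That part was 2.15 to 2.45% in AGO1/2 KO and 1.46 to 2.18% in AGO1/2/3 KO, against 4.73 to 5.67% in wild type. The sum was not taken on the scale of all counts.

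The single knockouts separate the loss of AGO1 from that of AGO2. Their comparisons with wild type use the same wild-type libraries as the rule, while AGO2 KO against AGO1 KO shares no library with it, although the spread is estimated over all whole-cell libraries. Tests on levels used edgeR's quasi-likelihood test over all whole-cell libraries, adjusted by Benjamini-Hochberg over all 1990 miRNAs tested, and a call is an adjusted p under 0.05. All 8 members were tested. In AGO1 KO cells 2 of 8 members fell against wild type, beside 3.82% of all miRNAs lower and 10.4% changed in either direction. miR-629-3p had 20.3, 35.3 and 38.2 RPM in AGO1 KO cells, against 71.6, 65.6 and 38.5 RPM in wild-type cells. The highest AGO1 KO library lay just under the lowest wild-type library, and the log2 change was -1.44 ± 0.43 (edgeR adjusted p = 0.0242). miR-550a-3p had 1 count in each AGO1 KO library, against 12, 5 and 8 counts in wild-type cells. Its summed level was 0.163 times that of wild type, with an exact 95% counting interval from 0.0314 to 0.533 (edgeR adjusted p = 0.0121). Both calls were lost with scaling to the miRNA total, without AGO1 KO replicate 1 and without wild-type replicate 1; that of miR-629-3p was also lost without wild-type replicate 2. miR-642a-3p had 40.7, 64.8 and 115 RPM in AGO1 KO cells, against 78.4, 58.7 and 73.2 RPM in wild-type cells (edgeR log2 change -0.47, adjusted p = 0.488).

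In AGO2 KO cells 0 of 8 members passed edgeR's test against wild type, beside 0.804% of all miRNAs. By unadjusted p under 0.05 it was 2 of 8, and DESeq2 called 0 of the 6 members to which it gave an adjusted p. miR-642a-3p had 94.6, 139 and 243 RPM in AGO2 KO cells, against 78.4, 58.7 and 73.2 RPM in wild-type cells. The groups did not overlap, with a log2 change of 0.92 ± 0.36 (edgeR adjusted p = 0.249). miR-629-3p had 98.9, 92.8 and 129 RPM in AGO2 KO cells, above the wild-type libraries at 71.6, 65.6 and 38.5 RPM, with a log2 change of 0.64 ± 0.37 (edgeR adjusted p = 0.541). miR-629-5p had 163, 162 and 175 RPM in AGO2 KO cells, below the 252, 287 and 262 RPM of wild-type cells, with a log2 change of -0.87 ± 0.31 (edgeR adjusted p = 0.188).

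Arm balance was tested with limma on the log2 ratio of 3p to 5p counts, for hairpins with enough counts in both arms. Of the 4 hairpins, miR-642a and miR-629 passed that minimum in whole-cell RNA. The 3p share of miR-629 was 37.7, 36.4 and 42.5% in AGO2 KO cells, against 22.1, 18.6 and 12.8% in wild-type cells. The log2 ratio rose by 1.56 ± 0.38 (limma adjusted p = 0.0378), beside 0.680% of 147 hairpins with a rise of the 3p arm and 1.36% changed either way. That call was lost in 7 of 12 alternatives, with values from 1.30 to 1.76 when single libraries were left out and an adjusted p of up to 0.206. The share of miR-642a was 27.2, 29.6 and 55.2% in AGO2 KO cells, against 30.3, 22.7 and 23.5% in wild-type cells. One AGO2 KO library stood above the rest while the other 2 overlapped wild type (log2 change 0.76 ± 0.42, limma adjusted p = 0.427). In AGO1 KO cells the miR-629 share was 7.89, 10.9 and 10.9%, all below wild type, with a log2 change of -0.90 ± 0.38 (limma adjusted p = 0.112). That of miR-642a was 30.3 ± 10.3% (SD, n = 3) with a log2 change of 0.32 ± 0.42 (limma adjusted p = 0.634). Thus 0 of 2 hairpins passed in AGO1 KO, 1 by unadjusted p, beside 12.9% of all hairpins.

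The AGO2 KO and AGO1 KO cells, set directly against each other, differed in miR-629-3p and miR-642a-3p. miR-629-3p averaged 107 ± 19.4 RPM in AGO2 KO and 31.3 ± 9.61 RPM in AGO1 KO cells (SD, n = 3 each), and the groups did not overlap. Its log2 change was 2.08 ± 0.43 (edgeR adjusted p = 0.0054). miR-642a-3p averaged 159 ± 76.1 RPM in AGO2 KO and 73.4 ± 37.8 RPM in AGO1 KO cells (SD, n = 3 each), where the highest AGO1 KO library at 115 RPM lay above the lowest AGO2 KO library at 94.6 RPM. Its log2 change was 1.39 ± 0.37 (edgeR adjusted p = 0.0313). These were 2 of 8 members higher, beside 1.31% of all miRNAs higher and 2.46% changed either way. The call of miR-642a-3p was lost with scaling to the miRNA total, with only these 2 groups fitted and without any of AGO1 KO replicates 1 and 2 and AGO2 KO replicates 2 and 3. The 5p strands miR-642b-5p (1.16) and miR-642a-5p (1.02) had positive log2 values that missed the threshold (edgeR adjusted p = 0.0703 and 0.0831). So did the 3p strands miR-642b-3p (1.37) and miR-550a-3p (1.91; edgeR adjusted p = 0.315 and 0.330).

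For the arm balance of miR-629, a comparison added after the data were seen, the log2 ratio was 2.46 ± 0.38 higher in AGO2 KO than in AGO1 KO cells (limma adjusted p = 0.000272). This call was kept under all 12 alternatives in which the hairpin could be fitted. Of 147 hairpins 7.48% had a higher 3p arm and 9.52% changed either way. For miR-642a the value was 0.44 (limma adjusted p = 0.622). Of the 19 partner 3p strands 5 were higher in AGO2 KO than in AGO1 KO cells, with a median of 0.58, and of the 10 guide strands 0 were, with a median of 0.61. Epithelial markers had a median of 0.32 with 0 of 7 called in that comparison. Against wild type, 6 of the 19 partner 3p strands and 1 of the 10 guide strands were lower in AGO1 KO cells, and 0 of each changed in AGO2 KO cells.

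**Figure D3:**
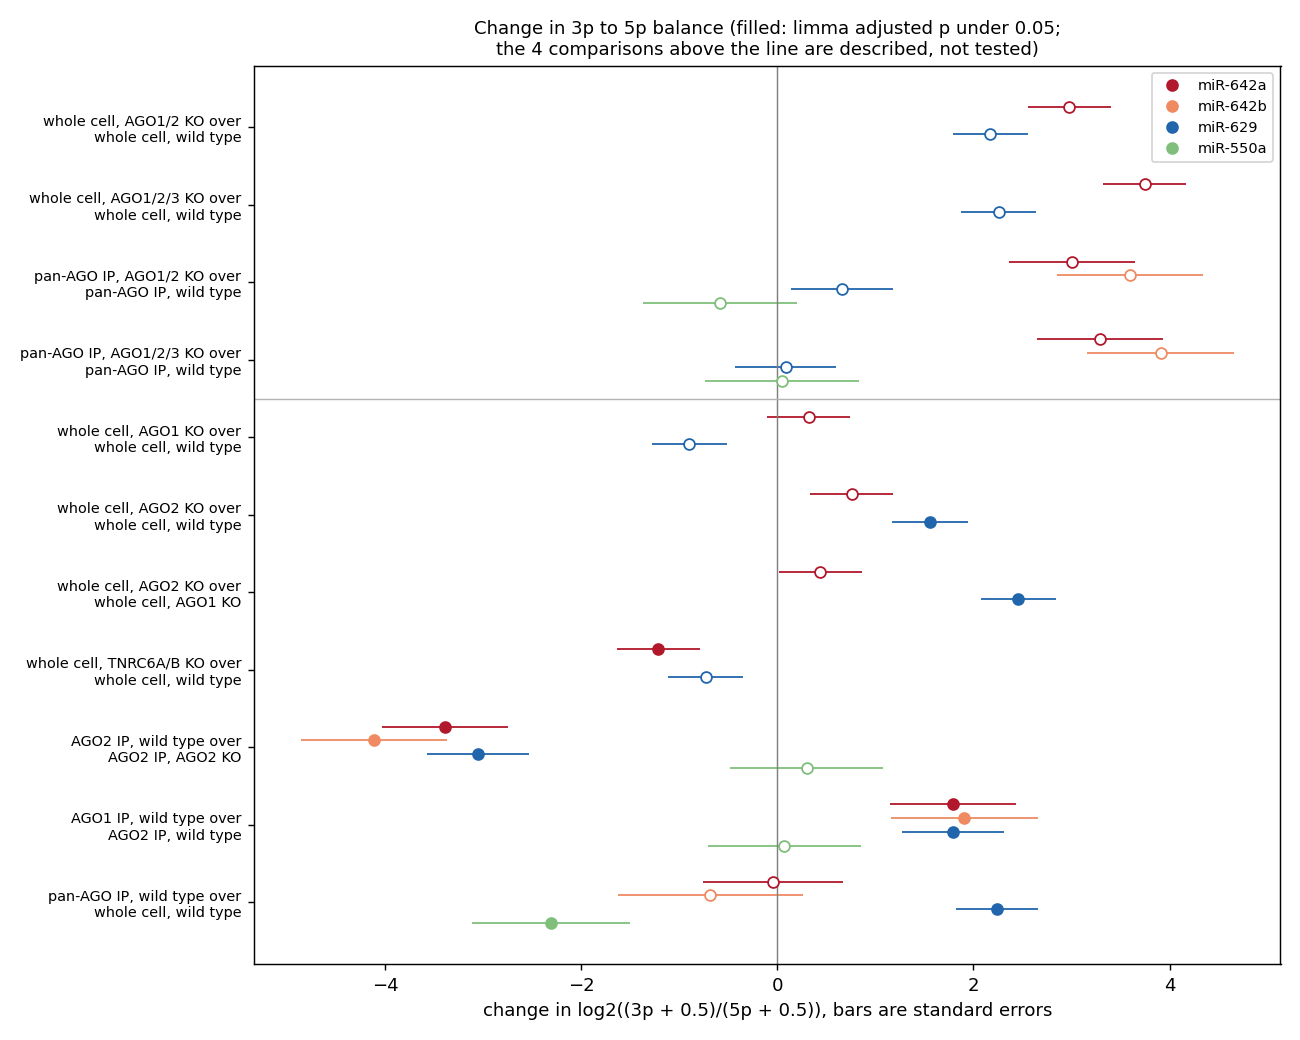
Change in the log2 ratio of 3p to 5p counts for each comparison and hairpin, with its SE, filled where the limma adjusted p is under 0.05 and with the comparisons that the choice of members used at the top, drawn without a test. miR-629 lies at 2.46 for AGO2 KO against AGO1 KO, and the 3 hairpins other than miR-550a lie between -4.11 and -3.06 for the AGO2 IP from wild type against AGO2 KO.

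In the TNRC6 knockouts, where Argonautes remain but a partner is lost, miR-550a-3p was lower in each genotype and miR-642a-3p and miR-629-3p in 2 of the 3, while miR-642b-3p passed in none. Between 42.0 and 43.9% of all miRNAs changed in these comparisons and 18.2 to 19.0% were lower, so the members' counts, 2 of 8 lower without TNRC6A, 3 of 8 without TNRC6B and 3 of 8 without both, stand beside a high background. miR-642a-3p had 34.1, 30.7 and 20.2 RPM in TNRC6A/B KO cells, 30.5, 20.3 and 31.8 RPM in TNRC6B KO cells and 39.0, 34.1 and 29.8 RPM in TNRC6A KO cells, against 78.4, 58.7 and 73.2 RPM in wild-type cells. All 9 knockout libraries lay below the wild-type ones. The log2 change was -1.13 ± 0.38 in TNRC6A/B KO (edgeR adjusted p = 0.0130) and -1.29 ± 0.41 in TNRC6B KO (edgeR adjusted p = 0.00907), while -0.87 ± 0.38 in TNRC6A KO missed the threshold (edgeR adjusted p = 0.0614). miR-629-3p averaged 22.4 ± 12.4 RPM in TNRC6A/B KO and 17.6 ± 4.91 RPM in TNRC6A KO, against 58.6 ± 17.6 RPM in wild-type cells (SD, n = 3 each). Its log2 change was -1.24 ± 0.39 and -1.54 ± 0.42 (edgeR adjusted p = 0.00879 and 0.00269). In TNRC6B KO it averaged 32.4 ± 7.98 RPM (SD, n = 3), with a log2 change of -0.81 that missed the threshold (edgeR adjusted p = 0.1002). miR-642b-3p overlapped wild type in each genotype, with log2 changes of -0.46 in TNRC6A/B KO, -0.87 in TNRC6B KO and -0.25 in TNRC6A KO (edgeR adjusted p = 0.515, 0.252 and 0.745).

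miR-550a-3p fell in all 3 TNRC6 knockouts, with 3 counts over the TNRC6A KO libraries, 4 over the TNRC6B KO libraries and 10 over the TNRC6A/B KO libraries, against 25 in wild-type cells. Its summed level was 0.0830 times that of wild type in TNRC6A KO (exact 95% counting interval 0.0160 to 0.272) and 0.146 times in TNRC6B KO (0.0369 to 0.423). In TNRC6A/B KO the log2 change was -1.95 ± 0.62 (edgeR adjusted p = 0.00897). miR-642b-5p fell in TNRC6B KO alone among these tests, to 39.1 ± 2.86 RPM against 79.2 ± 22.9 RPM in wild-type cells (SD, n = 3 each; edgeR log2 change -0.94, adjusted p = 0.0299); differences between the TNRC6 genotypes were not tested. The call of miR-642a-3p in TNRC6B KO was lost without TNRC6B KO replicate 2, that of miR-642b-5p with RLE size factors (-0.81, edgeR adjusted p = 0.0661), with DESeq2 (adjusted p = 0.0987) and without TNRC6B KO replicate 1 or 2 or wild-type replicate 3, and that of miR-550a-3p in TNRC6A/B KO without wild-type replicate 1. With scaling to all counted RNAs the calls of miR-642a-3p, miR-629-3p and miR-642b-5p were lost wherever they were made, and that of miR-550a-3p in TNRC6A/B KO. With that scaling miR-642a-5p and miR-642b-5p were instead called higher in TNRC6A/B KO (0.84 and 0.82, edgeR adjusted p = 0.0221 and 0.0324). They were also called higher in TNRC6A KO (0.92 and 0.93, edgeR adjusted p = 0.0137 and 0.0168). The median of all miRNAs was then 0.79 in TNRC6A/B KO and 0.72 in TNRC6A KO, so these values lay near the shift of all miRNAs. The miRNA share of counts was 7.27 to 13.2% in these cells against 4.73 to 5.67% in wild type.

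The 3p share of miR-642a was 11.2, 12.7 and 14.0% in TNRC6A/B KO, below the 30.3, 22.7 and 23.5% of wild-type cells. The log2 ratio was -1.21 ± 0.42 (limma adjusted p = 0.0258), beside 17.0% of hairpins with a lower 3p arm and 40.8% changed either way, and the call was lost without TNRC6A/B KO replicate 1 or 2 or wild-type replicate 1. Values in TNRC6A KO (13.6 ± 2.16%) and TNRC6B KO (14.8 ± 4.35%; SD, n = 3 each) were also low and were not tested. For miR-629 the share averaged 8.49% without TNRC6A, 15.2% without TNRC6B and 12.0% without both, and the last had a log2 change of -0.73 (limma adjusted p = 0.147). In levels, 43.9% of all miRNAs changed in TNRC6A/B KO and 19.0% were lower. Beside that, 3 of the 19 partner 3p strands were higher and 1 lower. Of the 14 tested markers of other cell types 8 were higher, with a median of 1.23. Whether these markers have a part in the members' values was not tested.

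By mean 3p share, AGO2 IPs from wild-type cells held mostly the 5p strands, as did whole wild-type cells. The mean 3p share of miR-642a was 14.0% in these IPs and 25.5% in whole cells. It was 4.84 and 22.7% for miR-642b, 18.1 and 17.9% for miR-629, and 17.1 and 41.3% for miR-550a. The AGO2 IP was not tested against whole cells. Against the AGO2 KO IP, what AGO2 binds and what differs between the cells cannot be told apart. In AGO2 IPs the 3p share of miR-642a was 13.8, 18.4 and 9.58% from wild-type cells, against 51.2, 73.0 and 61.2% from AGO2 KO cells, where the antibody lacks its target. The log2 ratio was -3.39 ± 0.64 (limma adjusted p = 0.000174). For miR-642b the share averaged 4.84 ± 1.75% in wild type and 46.3 ± 9.35% in AGO2 KO (SD, n = 3 each), with a log2 ratio of -4.11 ± 0.75 (limma adjusted p = 0.00011). For miR-629 it was 21.9, 17.2 and 15.2% in wild type, against 60.0, 68.9 and 64.6% in AGO2 KO, with a log2 ratio of -3.06 ± 0.52 (limma adjusted p = 6.04e-05). The 3 hairpins did not overlap between the IPs, and how many of all hairpins did not was not counted. For miR-550a the value was 0.30 ± 0.78 (limma adjusted p = 0.803). This comparison was added after the data were seen. The 3 calls of 4 hairpins were kept under every alternative in which the hairpin could be fitted, and stand beside 27.6% of 221 hairpins with a lower 3p arm and 47.1% changed either way.

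The AGO2 IP from AGO2 KO cells was no empty background. miRNAs made up 81.3 to 82.3% of the counts of the AGO2 IP from wild-type cells and 15.1 to 22.1% of that from AGO2 KO cells, and the whole AGO2 KO cells held 2.92 to 4.13%. miR-642a-3p had 312, 385 and 173 counts in the wild-type IP and 213, 1855 and 1225 counts in the AGO2 KO IP. On the RPM scale these were 41.4 ± 14.8 RPM in wild type and 1102 ± 952 RPM in AGO2 KO (SD, n = 3 each), with replicate 1 of the AGO2 KO IP far below the other 2. The summed partner 3p strands in these IPs ranged from 9680 to 11380 RPM in wild type and from 51823 to 55146 RPM in AGO2 KO.

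In levels, the AGO2 IP from wild-type cells was lower than that from AGO2 KO cells for miR-642a-3p and miR-642b-3p under each scaling tried. With TMM scaling their log2 changes were -1.72 ± 0.65 and -2.42 ± 0.61 (edgeR adjusted p = 0.0312 and 0.00188); the first lost its call without AGO2 KO replicate 2 (-1.08) and without wild-type replicate 1 or 3. miR-629-3p had -1.26 ± 0.64 (edgeR adjusted p = 0.106), and passed with scaling to the miRNA total (-4.26, adjusted p = 8.72e-07) or to all counted RNAs (-2.03, 0.0138), with only these 2 groups fitted (-1.53, 0.00428) and without AGO2 KO replicate 1 (-1.73, 0.0439). With the same scaling miR-642a-5p (1.87), miR-642b-5p (1.85), miR-629-5p (1.90) and miR-550a-3p (1.78) were higher in the wild-type IP (edgeR adjusted p = 0.0130, 0.0144, 0.0146 and 0.00813), but scaled to the miRNA total their values were -1.09, -1.12, -1.09 and -1.08. Without AGO2 KO replicate 1 the calls of the 5p strands were lost, that of miR-629-5p also without AGO2 KO replicate 3, and that of miR-550a-3p without wild-type replicate 1. The direction of the 5p levels thus rests on the scaling, which moved the median of all miRNAs from -0.44 with TMM to -3.18, while the arm balance does not use it. The 6 members called stand beside 25.1% of all miRNAs higher, 19.0% lower and 44.1% in either direction. All 10 guide strands and 9 of 19 partner 3p strands were higher in the wild-type IP, with medians of 2.99 and 1.33.

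**Figure D4:**
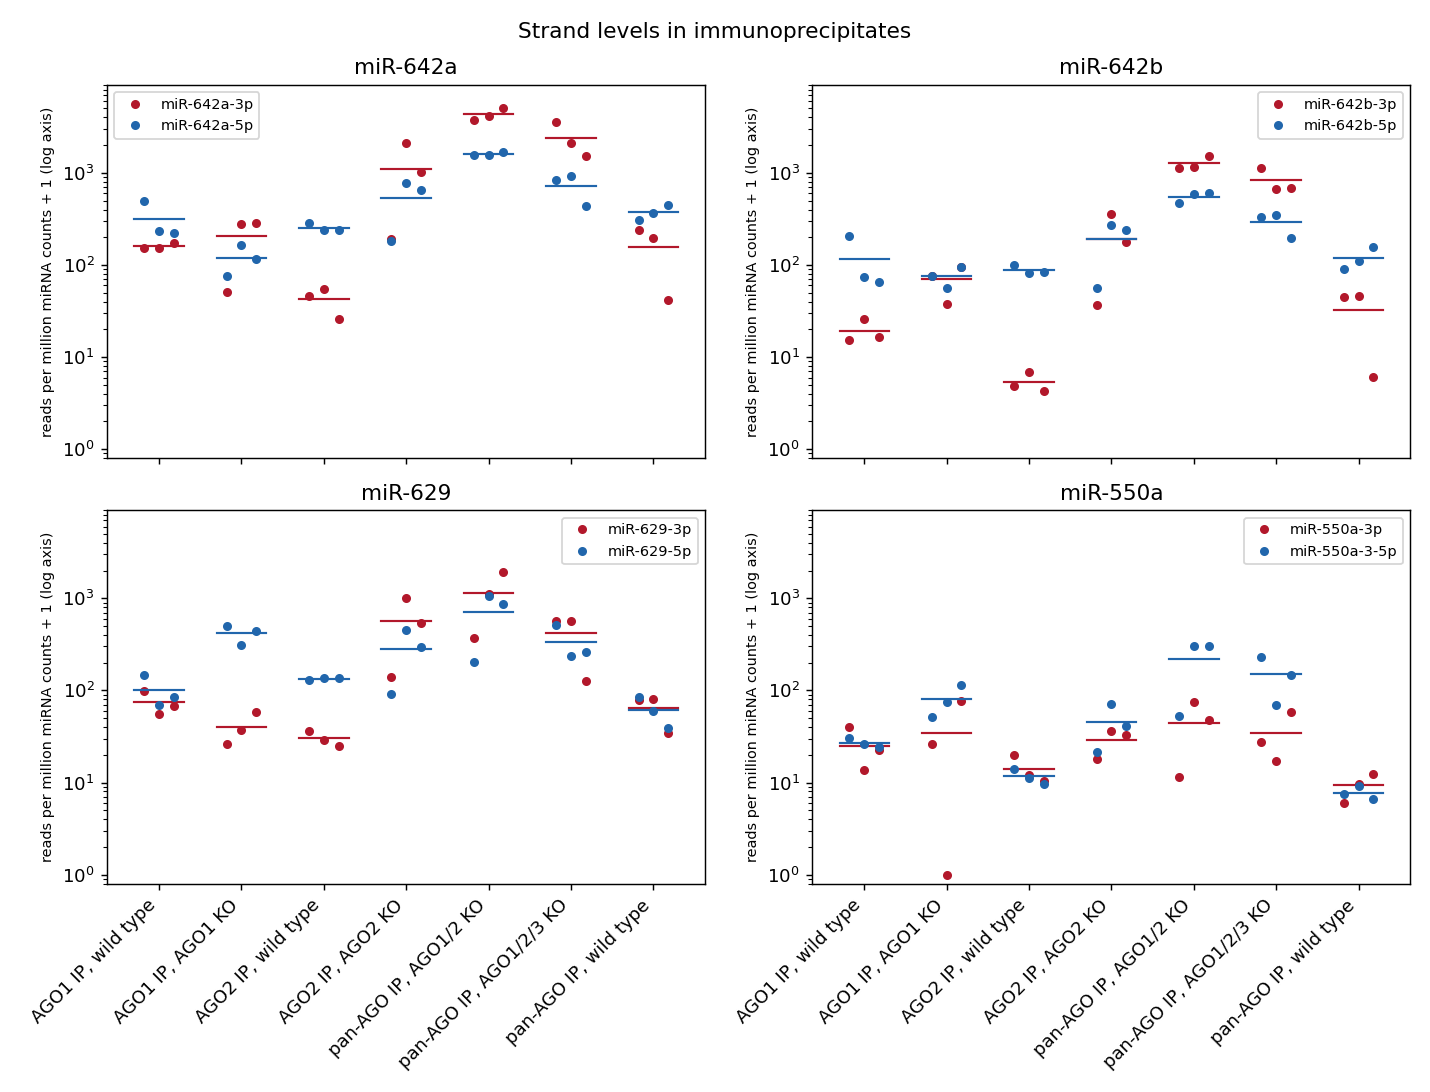
Level of each member in each IP library, as RPM plus 1 on a log axis, 3p strands in red, 5p strands in blue, bars at group means. In the AGO2 IP from wild-type cells miR-642a-5p lies between 236 and 281 RPM and miR-642a-3p between 25.0 and 53.9 RPM, and in the pan-AGO IP from AGO1/2 KO cells miR-642a-3p lies at 3750 RPM or above.

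For miR-642a, miR-642b and miR-629 the AGO1 IPs held relatively more 3p strand than the AGO2 IPs. In wild-type cells the 3p share of miR-642a was 23.8, 39.9 and 43.6% in AGO1 IPs, against 13.8, 18.4 and 9.58% in AGO2 IPs, with a log2 ratio of 1.79 ± 0.64 (limma adjusted p = 0.0313). That of miR-629 was 40.0, 44.9 and 44.2% in AGO1 IPs, against 21.9, 17.2 and 15.2% in AGO2 IPs, with a log2 ratio of 1.79 ± 0.52 (limma adjusted p = 0.00956). That of miR-642b averaged 17.2 ± 9.81% in AGO1 IPs and 4.84 ± 1.75% in AGO2 IPs (SD, n = 3 each), with a log2 ratio of 1.91 ± 0.75 (limma adjusted p = 0.0473). No AGO1 IP library overlapped an AGO2 IP library for miR-642a or miR-629, and the share of all hairpins without overlap was not counted. miR-550a had 0.07 ± 0.78 (limma adjusted p = 0.959). The 3 calls stand beside 23.1% of hairpins with a higher 3p arm and 40.7% changed either way. The call of miR-629 was kept under each alternative run, while those of miR-642a and miR-642b were lost without AGO1 IP replicate 2 or 3 or AGO2 IP replicate 1 or 3, and that of miR-642b also without AGO2 IP replicate 2 and with the lower count minimum (limma adjusted p = 0.0514), with adjusted p of up to 0.121 and 0.193.

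The AGO1 IP from wild-type cells held 11.5 to 27.2% miRNAs, against 1.44 to 1.86% in the AGO1 IP from AGO1 KO cells. The AGO1 KO IP gave 32 counts of miR-642a-3p and 18 of miR-642a-5p over its 3 libraries, too few to test the arm balance against it. In levels 5 of 8 members were higher in the wild-type IP with TMM scaling, beside 12.8% of all miRNAs higher and 13.8% in either direction. miR-642a-5p had a log2 change of 4.61 ± 0.73 (edgeR adjusted p = 6.03e-06), miR-642b-5p of 3.93 ± 0.76 and miR-629-3p of 3.999 ± 0.88 (edgeR adjusted p = 0.000124 and 0.000689). These 3 kept a positive sign with scaling to the miRNA total, although miR-642b-5p (0.63) and miR-629-3p (0.86) then missed the threshold. miR-642a-3p (2.67) and miR-550a-3p (2.74) were also called (edgeR adjusted p = 0.00617 and 0.0207). With scaling to the miRNA total they had -0.39 and -0.44, beside a median of -3.07 over all miRNAs. Both lost their call without AGO1 KO replicate 1, and miR-550a-3p also without AGO1 KO replicate 2 or wild-type replicate 1. Counts in the AGO1 KO IP were few, with 6 of miR-629-3p, 11 of miR-642b-5p and 5 of miR-550a-3p over its 3 libraries. Per miRNA count the ratio of wild type to AGO1 KO was 1.92 for miR-629-3p (exact 95% counting interval 0.859 to 5.32). For miR-550a-3p it was 0.803 (0.320 to 2.59), and both intervals include no difference on that scale. The TMM factors of the AGO1 KO IP libraries were 8.57 to 11.8. Of the 10 guide strands 10 and of the 19 partner 3p strands 18 were higher, with medians of 4.91 and 3.75.

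Between the AGO1 IP and the AGO2 IP from wild-type cells 6 of 8 members were lower in the AGO1 IP with TMM scaling, from -3.44 for miR-629-5p to -1.75 for miR-629-3p, beside 25.5% of all miRNAs lower and 45.7% in either direction. With scaling to the miRNA total 5 of those 6 turned positive, miR-642a-5p to 0.32 and miR-629-3p to 1.33, and the median of all miRNAs moved from 0.35 to 3.52. No direction of levels between the AGO1 IP and the AGO2 IP is therefore given. AGO1 IP replicate 1 stood apart in miR-642a-5p, at 490 RPM beside 231 and 223 RPM in the other 2.

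The pan-AGO antibody is meant to take up whichever Argonautes remain, and no group here gives its background. In pan-AGO IPs miR-642a-3p reached the highest level of any group. It had 3750, 4142 and 5091 RPM in AGO1/2 KO and 3605, 2111 and 1531 RPM in AGO1/2/3 KO, against 236, 195 and 40.9 RPM in wild type. All 6 knockout libraries lay above the wild-type libraries. The log2 change was 3.83 in AGO1/2 KO and 1.75 in AGO1/2/3 KO, given without a test. miR-642b-3p had 4.44 and 2.52, miR-550a-3-5p 4.06 and 1.99, and miR-629-3p 3.22 and 0.61. Of the 5p strands miR-642a-5p had 0.95 and -1.41, miR-642b-5p 1.06 and -1.13, and miR-629-5p 2.61 and 0.13. The median over the members was 2.91 in AGO1/2 KO and 0.37 in AGO1/2/3 KO, beside -0.02 and 0.00 over all miRNAs. miRNAs made up 12.9 to 24.6% of counts in the AGO1/2 KO IP and 3.00 to 11.1% in the AGO1/2/3 KO IP, against 29.03 to 54.9% in the wild-type IP. Replicate 3 of the AGO1/2/3 KO IP stood apart, with 3.00% miRNAs beside 10.6 and 11.1% in replicates 1 and 2. Its TMM factor was 4.59, beside 1.65 and 1.66.

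The 3p share of miR-642a in these IPs averaged 72.8 ± 2.11% in AGO1/2 KO and 76.3 ± 6.08% in AGO1/2/3 KO, against 28.8 ± 18.3% in wild type (SD, n = 3 each). Those means are close to the 73.0 ± 4.40%, 82.4 ± 2.18% and 25.5 ± 4.18% of the whole cells. The wild-type value was spread, at 43.4, 34.7 and 8.32%; replicate 3, with the lowest share, was also the library with 54.9% miRNAs. miR-642b had 32.6, 29.4 and 3.14% in the wild-type IP, with the same library apart. For miR-629 the share averaged 61.6 ± 9.23% in the AGO1/2 KO IP and 51.8 ± 18.9% in the AGO1/2/3 KO IP, against 50.7 ± 5.85% in the wild-type IP (SD, n = 3 each). Replicate 3 of the AGO1/2/3 KO IP had 32.4%, from 11 3p and 23 5p counts, beside 52.9 and 70.2% in replicates 1 and 2.

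The pan-AGO IP of wild-type cells was compared with their whole-cell RNA, with 7 of the 8 members above the count filter and miR-550a-3-5p below it. Both groups are controls of the contrasts that chose the members. miR-642a-3p (3.10 ± 0.52), miR-642a-5p (2.88 ± 0.32), miR-642b-5p (2.62 ± 0.39), miR-642b-3p (2.19 ± 0.68) and miR-629-3p (2.04 ± 0.40) were higher in the IP by edgeR, 5 of 7 beside 28.1% of all miRNAs higher and 63.1% either way. These 5 stayed positive when scaled to the miRNA total, although only 3 members then passed, and miR-642b-3p lost its call without whole-cell replicate 2. miR-629-5p had -0.17, so the arms of miR-629 parted: its 3p share was 50.7 ± 5.85% in the IP and 17.9 ± 4.69% in whole cells (SD, n = 3 each), and the log2 ratio was 2.24 ± 0.41 higher (limma adjusted p = 0.00129). miR-550a moved towards its 5p arm, with a log2 ratio of -2.31 ± 0.81 (limma adjusted p = 0.0332), a call lost when any of 4 of the 6 libraries was left out. miR-642a had -0.05 ± 0.71 (limma adjusted p = 0.956), and 0.89 ± 0.38 (limma adjusted p = 0.0338) without pan-AGO IP replicate 3. Of 224 hairpins 61.2% changed. The guide strands were 10 of 10 higher and the partner 3p strands 14 of 19, with medians of 2.06 and 1.94.

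miR-629-5p was counted in 5 variant rows, named A to E, and in no row of its plain name, so its level is their sum. The sources used here do not say which sequences these rows hold. Variant C held 65.7 to 77.8% of the counts in whole-cell groups. In AGO2 IPs it held 98.7% (2741 of 2776 counts) from wild-type cells and 93.9% from AGO2 KO cells. In AGO1 IPs it held 82.1% from wild-type cells, against 23.3% (14 of 60 counts) from AGO1 KO cells. In pan-AGO IPs it held 97.7% in AGO1/2 KO and 85.4% in AGO1/2/3 KO, against 87.6% in wild type. The row was thus a larger part of the miR-629-5p counts in every IP than in any whole-cell group, except in the AGO1 IP without its target. With variant C alone counted, the arm balance of miR-629 in AGO2 KO against wild type was 1.60 and missed the threshold (limma adjusted p = 0.06).

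**Figure D5:**
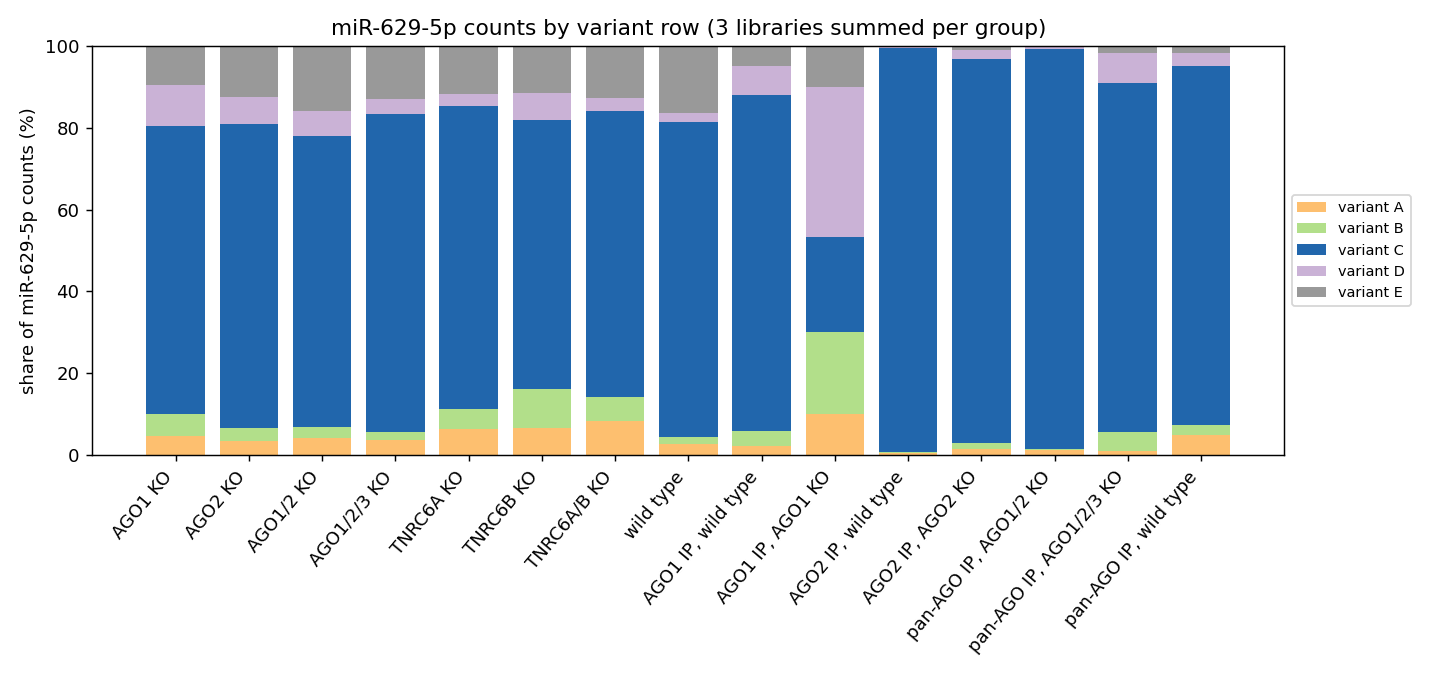
Share of miR-629-5p counts in variant rows A to E in percent, with the 3 libraries of each group summed, as stacked bars. Variant C in blue takes 98.7% in the AGO2 IP from wild-type cells and 23.3% in the AGO1 IP from AGO1 KO cells.

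The miR-642a row was the larger one of each miR-642 pair in all 15 groups. miR-642b-3p made up 9.56 to 36.2% of the counts of both miR-642 3p rows over the 15 groups, with a median of 18.7%. miR-642b-5p made up 19.4 to 37.9% of both 5p rows, with a median of 27.4%. miR-550a-3-5p made up 13.5 to 61.5% of the counts of both miR-550a 5p rows, with a median of 35.8%. In pan-AGO IPs it made up 37.1% in AGO1/2 KO and 39.5% in AGO1/2/3 KO, against 13.5% in wild type.

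Over all 15 groups, the mean level of miR-642a-3p was highest in the pan-AGO IP of AGO1/2 KO cells, whose range did not overlap that of the next group, the pan-AGO IP of AGO1/2/3 KO cells. There followed whole AGO1/2/3 KO and AGO1/2 KO cells, the AGO2 IP of AGO2 KO cells, the AGO1 IPs of AGO1 KO and of wild-type cells, whole AGO2 KO cells, the pan-AGO IP of wild-type cells and whole AGO1 KO and wild-type cells, each overlapping its neighbour. A gap separated whole wild-type cells from the lowest groups, the AGO2 IP of wild-type cells and the 3 TNRC6 knockouts, which overlapped each other. miR-629-3p ran from the pan-AGO IP of AGO1/2 KO cells at the top to TNRC6A KO cells at the bottom, and all neighbours in that order overlapped.

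Among the relatives, miR-550a-5p had 1079 counts in the AGO2 IP of wild-type cells, beside 275 of miR-550a-3p and 223 of miR-550a-3-5p. miR-550b-2-5p, the exact reverse complement of miR-550a-3p, averaged 50.8 ± 33.8 RPM in the AGO1 IP of wild-type cells and 575 ± 383 RPM in that of AGO1 KO cells (SD, n = 3 each). In AGO2 IPs it averaged 1.66 ± 0.821 RPM in wild type and 29.4 ± 15.3 RPM in AGO2 KO (SD, n = 3 each). Its RPM was thus higher where the antibody lacked its target and miRNAs were a smaller part of all counts. In AGO1 IPs it had 79 counts in wild type and 89 in AGO1 KO, or 7.29 and 9.21 CPM of all counts. The log2 change of wild type over AGO1 KO was -0.60 with TMM scaling (edgeR adjusted p = 0.486). In AGO2 IPs that of wild type over AGO2 KO was -1.22 (edgeR adjusted p = 0.0375), from 35 and 90 counts. miR-550b-3p had 0 counts in the AGO1 IP and in the pan-AGO IP of wild-type cells. Rows of the precursors gave few counts, 22 in all for mir-550a-1, 7 for mir-550a-2 and 1 each for mir-629, mir-642a and mir-642b. Of the 22, 16 came from the AGO2 IP of wild-type cells, as 5, 8 and 3 counts, against 1 from the less deeply sequenced AGO2 IP of AGO2 KO cells. Per miRNA count the ratio between these IPs was 2.44, with an exact 95% counting interval from 0.379 to 102, so no difference was detectable on that scale. The wild-type IP libraries held 6898899 to 7142721 miRNA counts, against 887786 to 1193367 in the AGO2 KO IP. Their totals over all RNAs lay closer, at 8432763 to 8683483 against 5037375 to 5863479. A ratio on the scale of all counts was not tested. Among host transcripts, fragments of GIPR gave 0 to 3 counts in each of the 15 groups, while those of TLE3 gave 20 to 71 and those of ZNRF2 11 to 39 counts per whole-cell group.

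Over the 8 whole-cell groups the mean log2 levels of the gaining strands ran together. The Pearson correlation of miR-642a-3p was 0.969 with miR-629-3p, 0.953 with miR-642b-3p and 0.864 with miR-550a-3-5p, but 0.236 with its own 5p partner. miR-642a-5p in turn had 0.91 with miR-642b-5p. Outside the members and their relatives, among 1978 miRNAs, the rows most like miR-642a-3p were miR-2054 (0.984), miR-127-5p (0.962), miR-29b-1-5p (0.962), miR-4797-5p (0.961) and miR-26a-1-3p (0.957). Those most like miR-629-3p were let-7f-1-3p (0.956), miR-127-5p (0.946), miR-26a-2-3p (0.945), miR-2054 (0.944) and miR-627-5p (0.937). These correlations rest on 8 group means that share the same libraries and scaling, and the AGO1/2 and AGO1/2/3 KO groups that chose the members are among them.

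The first base, which Argonautes are known to read, was U for miR-629-5p and miR-550a-3p, A for miR-642a-3p, miR-642b-3p and miR-550a-3-5p, and G for miR-642a-5p, miR-642b-5p and miR-629-3p. Of 2370 distinct mature miRNAs in RefSeq 36.8% began with U, 27.6% with A, 21.8% with C and 13.8% with G. The strands high in AGO1/2 KO cells thus began with A in the miR-642 hairpins and miR-550a and with G in miR-629.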

How the data were processed

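Small-RNA libraries (TruSeq small RNA kit, per the labels' protocols) of 45 samples were deposited by the authors as raw read counts per feature, 167112 features each, including mature miRNAs, precursors, tRNA and mRNA fragments. The submitters' processing notes name cutadapt 1.16, Bowtie 1.1.2 and GRCh38; the sources used here give neither the settings nor how reads with several matches were handled. Variant rows (1.109% of miRNA counts) were summed into their miRNA.

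The members and all lists were chosen with earlier results of these data known. All 8 members and 3 miR-550 relatives are named, with the 5 miRNAs most like miR-642a-3p and miR-629-3p by Pearson r among those with at least 20 CPM in 1 group. The 4 lists are abundant guide strands, partner 3p strands, epithelial markers and markers of other cell types and serum. Levels were tested with edgeR 4.0.16 (R 4.3.3; quasi-likelihood F test, TMM on miRNA counts, filterByExpr at 10 and 15 counts) in 3 fits: 24 whole-cell libraries, 21 IP libraries, and 6 wild-type whole-cell and pan-AGO IP libraries. Arm balance was tested with limma 3.58.1 on log2 of (3p count + 0.5) over (5p count + 0.5), for hairpins with mean counts of 10 in the minor arm and 50 in both. For miR-550a the 5p arm there is miR-550a-5p. Both were adjusted by Benjamini-Hochberg and checked on simulated data. Scaling, filters, DESeq2 1.42.0, variant rows, the groups fitted, single libraries and a replicate block were varied. Shares have exact 95% intervals, which, like the counting intervals, cover counting error only. Same-numbered replicates were not paired. Sequences are from RefSeq, figures from matplotlib 3.10.9.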

Additional observations from a re-analysis of the deposited data

Results flagged for a closer look

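The arm balance of miR-629 differed between the single knockouts in the test of that difference, with a log2 ratio of 3p to 5p counts 2.46 higher in AGO2 KO than in AGO1 KO cells. The level of miR-629-3p differed in the same comparison, by 2.08 on the log2 scale, and that of miR-642a-3p by 1.39. In data outside the miRNA comparisons, the precursor row mir-550a-1 held 16 counts over the 3 AGO2 IPs of wild-type cells, against 1 over those of AGO2 KO cells, which held fewer miRNA counts. Per miRNA count the ratio was 2.44, with an exact 95% counting interval from 0.379 to 102 that includes no difference. The totals over all RNAs lay closer between these IPs than the miRNA counts, and a ratio on that scale was not tested.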

How the results depend on the processing

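Of the settings tried, scaling moved the level results most. Scaled to the mature miRNA total alone, the median log2 change of the members was 1.98 for the AGO1/2 KO and 2.24 for the AGO1/2/3 KO. It was 3.86 in the pan-AGO IP of AGO1/2 KO, 2.62 in that of AGO1/2/3 KO, and 0.35 for AGO1/2/3 KO against AGO1/2 KO. Over all miRNAs these medians were 0.8, 1.3, 1, 2.52 and 0.45 in the same order. The members were thus near all miRNAs in the pan-AGO IP of AGO1/2/3 KO, and below them between the triple and double knockout. The members called were 0 for AGO1 KO, 1 for AGO2 KO against AGO1 KO and 3 for the pan-AGO IP. In the AGO1 IP against AGO1 KO the values turned to -0.39 (miR-642a-3p), -1.93 (miR-642b-3p), -2.05 (miR-629-5p), -0.44 (miR-550a-3p) and -1.62 (miR-550a-3-5p). In the AGO2 IP against AGO2 KO they turned to -1.09 (miR-642a-5p and miR-629-5p), -1.12 (miR-642b-5p), -1.08 (miR-550a-3p) and -2.03 (miR-550a-3-5p). In the AGO1 IP against the AGO2 IP they turned to 0.32, 1.94, 0.41 and 2.01 (miR-642a-5p, miR-642a-3p, miR-642b-5p and miR-642b-3p). There miR-629-3p turned to 1.33, miR-550a-3p to 0.93 and miR-550a-3-5p to 1.29. In the pan-AGO IP against whole cells miR-550a-3p turned to -1.79. The medians of all miRNAs in these IP comparisons were -3.07, -3.18, 3.52 and -2.32, in the order given. Scaled to all counted RNAs, member medians were 0.80 in AGO1/2 KO and 0.64 in AGO1/2/3 KO, beside -0.34 and -0.3 over all miRNAs. The members called were then 5 for AGO1 KO, 1 for AGO2 KO, 4 for AGO2 KO against AGO1 KO and 1 for TNRC6B KO. They were 3 for the AGO2 IP and 3 for the AGO1 IP against the AGO2 IP. Over all miRNAs the medians of these comparisons were -0.29, -0.26, 0.02, 0.55, -1.17 and 1.24. The share of all miRNAs or hairpins called was taken for the main setting alone. Counts of members called under other settings, or with single libraries left out, therefore show how calls moved and no more. DESeq2 called 4 for AGO2 KO against AGO1 KO and 1 for TNRC6B KO, where it gave miR-550a-3p no adjusted p. With variant rows left out, which removes miR-629-5p, the medians were 1.96 and 2.22, and 0 hairpins were called for AGO2 KO, 0 for AGO2 KO against AGO1 KO and 1 for the pan-AGO IP. With only the 2 groups fitted, 1 member was called for AGO2 KO against AGO1 KO and 0 hairpins for AGO2 KO; that count was also 0 with a lower count minimum and with variant row C alone. Beyond scaling, the removal of miR-629-5p and the smaller fits, the cause was not tested.

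With single libraries left out, the members called ranged from 0 to 2 for AGO1 KO, 1 to 3 for AGO2 KO against AGO1 KO, 1 to 3 for TNRC6B KO, 2 to 4 for TNRC6A/B KO, 3 to 5 for the AGO1 IP, 4 to 6 for the AGO2 IP, 4 to 7 for the AGO1 IP against the AGO2 IP and 4 to 5 for the pan-AGO IP. The hairpins called ranged from 0 to 1 for AGO2 KO, 0 to 1 for TNRC6A/B KO, 1 to 3 for the AGO1 IP against the AGO2 IP and 1 to 2 for the pan-AGO IP, where the log2 ratio of miR-642a ranged from -0.65 to 0.89. In no comparison did the deviations of all same-numbered pairs correlate above 0.1 (values of -0.16 to 0.39, the highest between the AGO1 IPs), and a replicate block left the miR-629 arm balance of AGO2 KO at 1.56 (adjusted p = 0.0425). In all, 1203 values kept their side of the threshold or their size, 84 called values lost their call, 32 gained one, 84 moved and 19 turned. Depth limits miR-550a-3p, with 3 counts in AGO1 KO and 3 in TNRC6A KO.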
